A study of Mus musculus with 72 samples.

Results

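Lung tumors dissected from tobacco-carcinogen-exposed mice 7 months after the end of exposure were compared with normal-appearing lung of the same animals. The members are the 23 tumor libraries of that time whose titles carry the code ADN (21 libraries) or ADC (2 libraries), from 9 animals that also had a library of normal-appearing lung, so 32 of the 72 libraries of the series enter the main comparison. Tumors at 7 months and matched normal lungs at 7 months both came from Gprc5a-/- mice that had received NNK, a nitrosamine of tobacco smoke that forms DNA adducts, and were 44 weeks old. Tumors and matched normal lungs of the earlier times, also from NNK-exposed Gprc5a-/- mice, were taken at the end of exposure (16 weeks of age) or 3 months after it (28 weeks), and baseline lungs from Gprc5a-/- mice before exposure (8 weeks). Every group thus lacks Gprc5a, a lung receptor gene whose loss makes mice prone to lung tumors, and no group combines an age of 44 weeks with no exposure, so changes that all of these animals share are not visible in these comparisons. RNA was counted with an amplicon panel that measures each gene through 1 short product, so levels can be set side by side between samples but not between genes. Tumors were cut out under magnification with needles and hold stroma and immune cells beside epithelium. The number of tumors per animal was 3 in F7020, 2 in F7021, 1 in F1767, 2 in F1768, 1 in F1765, 2 in M7033, 7 in M7035, 2 in M7046 and 3 in M7037.

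The distal lung is lined by flat alveolar type 1 cells, across which gas is exchanged, and by alveolar type 2 cells, which make surfactant and divide to replace type 1 cells. Conducting airways carry club cells, which secrete proteins and hold much of the lung's cytochrome P450, and ciliated cells, whose beating cilia clear mucus. Signalling through MAPK/ERK, which growth-factor receptors set off, switches on feedback genes such as dual-specificity phosphatases and sprouty proteins.

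Total counts were 12568353 to 18922806 per tumor library and 7459147 to 19028144 per matched lung, with 15644 to 17801 and 16878 to 18081 genes detected. Gprc5a, the deleted gene, had at most 4 counts in any tumor (0 in 11 of 23) and at most 1 count in any matched lung (0 in 5 of 9), too few to test. The letter of an animal's name followed its sex-linked transcripts: Xist was at most 0.705 CPM (counts scaled to a common library total) in M-named and 694 to 5507 CPM in F-named libraries, and Ddx3y was 68.9 to 152 CPM in M-named libraries and at 0 in F-named ones. Tumors 8 and 22 stood apart. Tumor 8, from animal F1768, had a summed level of T and NK cell markers of 2866 CPM, against 55.6 to 576 CPM in the other 22 tumors. Its B and plasma cell markers summed to 12557 CPM against 629 to 2677 CPM, and its alveolar type 2 markers to 16554 CPM against 69579.5 to 219552 CPM. It was thus rich in lymphocyte transcripts and poor in those of the surfactant-making epithelium. Its ERK output genes summed to 711 CPM, below the 1292 to 3668 CPM of the other tumors, and its cell cycle genes to 1299.6 CPM, above their 143 to 472 CPM. Tumor 22, from animal M7037, had the highest summed ciliated markers of all tumors, 3365 CPM, and its gastric, intestinal and liver genes summed to 3847 CPM, against 165 to 440 CPM in the other tumors. Its neutrophil markers summed to 1566 CPM against 125 to 651 CPM. The granule genes S100a8, S100a9 and Ngp of that list were at most 8.66, 43.2 and 1.25 CPM in any M-named tumor. Most of the sum in tumor 22 thus came from other members of the list. Tumor 22 was also the highest tumor for club and airway secretory (58563 CPM), basal and neuroendocrine (148 CPM), heart muscle (327 CPM) and xenobiotic metabolism genes (4678 CPM). Matched lungs had 21725 to 151992, 42.0 to 137, 185 to 1554 and 4205 to 18847 CPM for these lists. Without tumor 22, 4651 genes were called in the comparison that follows. Where leaving out tumor 8 ended a call or moved a count given here by over 1.5 times, both values are given below. Without it, 17 alveolar type 2 genes, 20 cell cycle genes, 13 ERK output genes and 10 macrophage genes rose, against 17, 21, 13 and 11 with all tumors.

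For the comparison, the counts of an animal's tumors were summed, and each sum was set against that animal's own lung, giving 9 pairs. Gene levels are CPM after TMM scaling, differences are log2 fold changes of tumor over lung with their standard error, and a gene was called at a Benjamini-Hochberg adjusted p under 0.05 in edgeR's quasi-likelihood test with animal as a block. Summed levels, and those of Clca1, Pigr, Tff2 and Agr2, are CPM by total counts without TMM. With TMM, alveolar type 2 sums reached 318067 CPM in single tumors, and tumor 22 ranked 2 from the highest for club and airway secretory genes. It also ranked 2 for basal and neuroendocrine genes, at 115 CPM against 196 CPM in the highest tumor. Of 13900 genes tested, 4562 passed (32.8%): 2323 rose in tumors (16.7%) and 2239 fell (16.1%). Tumors were higher than their own lung in all 9 animals for 1311 genes (9.43%) and lower in all 9 for 1272 (9.15%). The split depends on scaling. With total counts alone the median over all genes moved to -0.21, against 0.06 with TMM, and 1057 genes rose while 3374 fell. The 9 tumor values lay wholly above the 9 lung values for 231 genes (1.66%) and wholly below for 224 (1.61%).

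**Figure D1:**
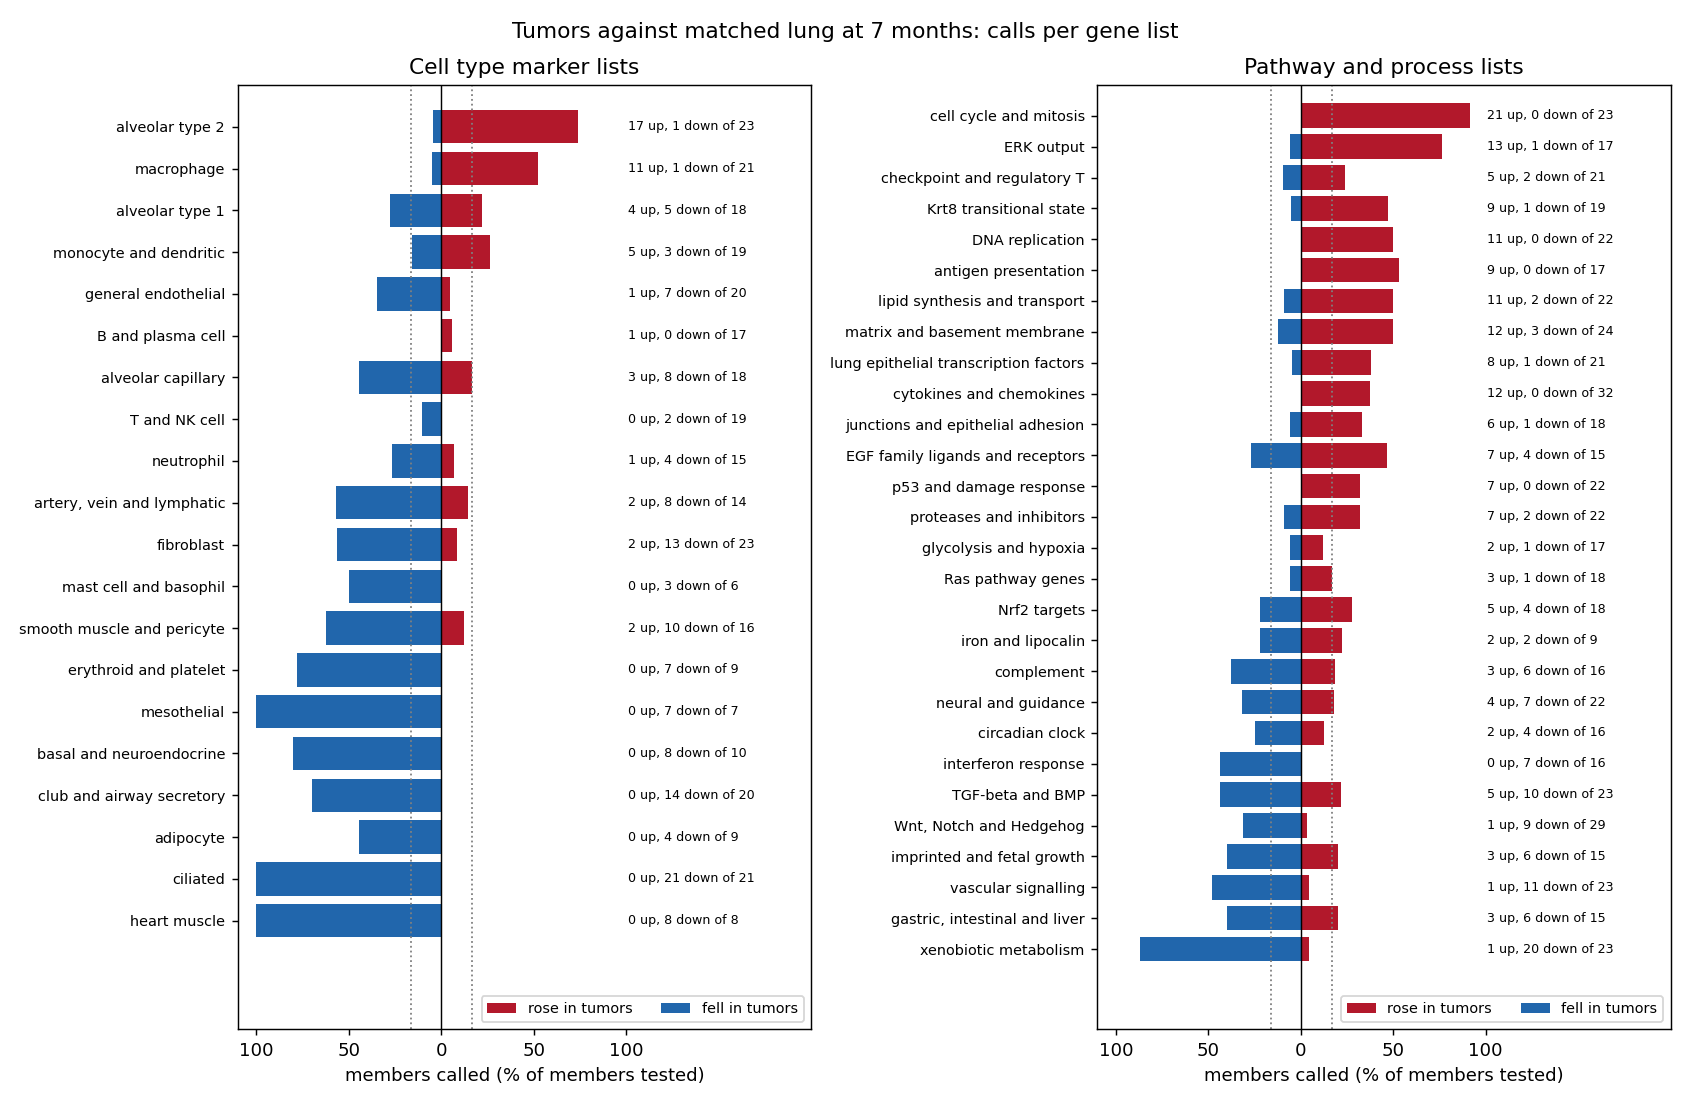
Members of each gene list that rose (red, to the right) or fell (blue, to the left) in tumors against matched lung at 7 months, as a percentage of the members tested, with the counts beside the bars and dotted lines at the share of all tested genes that rose (16.7%) or fell (16.1%). Cell cycle (21 up of 23), ERK output (13 of 17) and alveolar type 2 (17 of 23) have the highest shares of rises, and ciliated (21 down of 21) and xenobiotic metabolism (20 down of 23) are among the most complete falls.

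Among genes averaging at least 5 CPM, the 12 largest rises that had the same direction in 9 of 9 animals were genes of several kinds. Ereg, which encodes the EGF receptor ligand epiregulin, had 1.91 to 288 CPM in tumors (median 60.6) and 0 to 3.70 CPM in matched lungs (median 1.33). Tumors of F7020 and F1767 were at 2.58 and 1.91 CPM, inside the range of the lungs, while the other 7 animals' tumors were far above it. The log2 fold change was 5.07 ± 0.91 (edgeR adjusted p = 0.00215). Tnfsf9, which encodes a costimulatory ligand of T cells, had 18.4 to 109 CPM in tumors (median 31.8) and 0.667 to 3.04 CPM in matched lungs (median 1.13). The groups did not overlap, and the log2 fold change was 4.79 ± 0.29 (edgeR adjusted p = 1.38e-05). Ivl, which encodes involucrin of the cornified envelope of squamous epithelium, had 3.23 to 31.5 CPM in tumors (median 7.99) and 0.1003 to 1.89 CPM in matched lungs (median 0.307). Here too the groups did not overlap, at a log2 difference of 4.69 ± 0.30 (edgeR adjusted p = 1.38e-05). Ros1, a receptor tyrosine kinase gene, had 40.4 to 369 CPM in tumors (median 101.2) and 3.42 to 15.5 CPM in matched lungs (median 5.96), again without overlap, and differed by 3.85 ± 0.40 (edgeR adjusted p = 1.52e-04).

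The transcript 9330188P03Rik had the largest fitted rise of the 12, 5.23 ± 0.58 (edgeR adjusted p = 2.26e-04), with 7.70 to 139 CPM in tumors (median 35.8) and 0.201 to 3.36 CPM in matched lungs (median 0.690) and no overlap between the groups. The other members of the 12 had log2 fold changes between 3.08 and 4.28. They were Tmem213, Ptprn2, a phosphatase-like protein of dense-core vesicles (4.11), Veph1, the calcium-binding S100a14 (3.26), the glutamate receptor partner Shisa6 (3.17), the proton pump subunit Atp6v0a4 (3.16) and the class II phosphoinositide kinase Pik3c2g. In tumor 8 some of these were lower than in any other tumor, where 9330188P03Rik was 0.0512 CPM against 3.19 to 146 CPM in the other 22 tumors, and Ros1 was 3.12 CPM against 12.4 to 361 CPM.

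**Figure D2:**
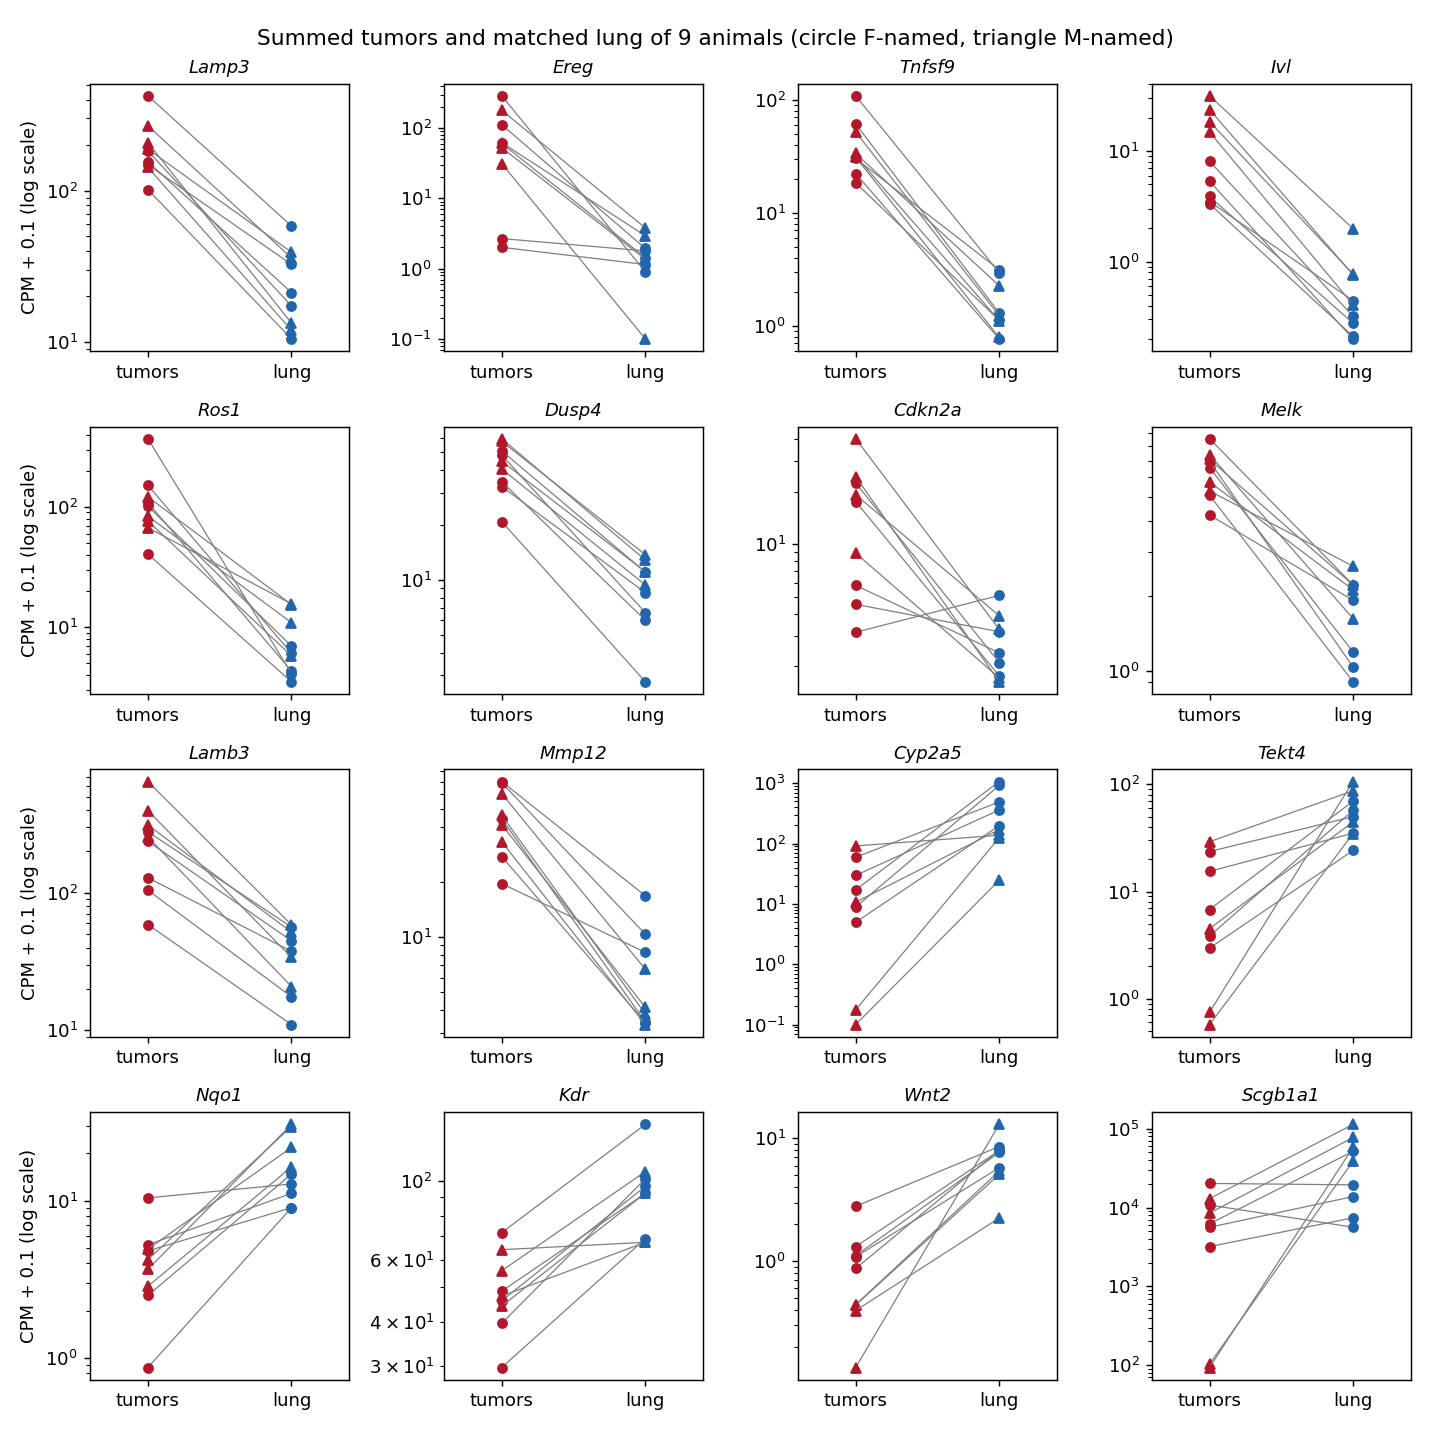
Levels of 16 genes in the summed tumors (red, left) and the matched lung (blue, right) of each animal, in CPM plus 0.1 on a log axis, with a line joining the values of an animal, circles for F-named and triangles for M-named animals. Tumors of all 9 animals lie above their own lung for Lamp3, Tnfsf9 and Dusp4 and below it for Cyp2a5 and Tekt4, while Scgb1a1 crosses.

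The 12 largest falls chosen in the same way included genes of motile cilia. Fam183b, Cfap46, Spag17 and Cfap73, which encode proteins of the ciliary axoneme, fell by 4.80, 4.75, 4.48 and 4.40 on the log2 scale. Cyp2a5, the cytochrome P450 that activates NNK in mice, had 0 to 91.3 CPM in tumors (median 10.6) and 24.5 to 1066 CPM in matched lungs (median 198). M7046 had 0 CPM in tumors and the lowest level in lung (24.5 CPM), which the tumors of F7020 (29.6 CPM), F1767 (59.3 CPM) and M7037 (91.3 CPM) exceeded. The log2 fold change of Cyp2a5 was -5.07 ± 0.93 (edgeR adjusted p = 0.00245). Gabrp, a GABA receptor subunit gene of airway epithelium, had 0 to 124 CPM in tumors (median 11.1) and 63.2 to 632 CPM in matched lungs (median 151), which overlapped through the tumors of M7037 alone, and differed by -4.67 ± 1.17 (edgeR adjusted p = 0.0111). Cnksr2, Klhl34, Dcdc5, Lrrc36, Efcab10 and C230072F16Rik completed the 12, with log2 fold changes between -4.58 and -4.41.

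Genes of alveolar type 2 cells rose. Of 23 tested, 17 rose and 1 fell, and the list's median log2 fold change was 1.68, against 0.06 over all genes. Lamp3, a lysosomal membrane protein of the surfactant-storing lamellar bodies, had 101.4 to 424 CPM in tumors (median 183) and 10.3 to 58.2 CPM in matched lungs (median 21.1). Every tumor value was above every lung value, and the log2 fold change was 3.04 ± 0.21 (edgeR adjusted p = 2.37e-05). Sftpc, which encodes surfactant protein C, had 12374 to 78557 CPM in tumors (median 29898) and 2691 to 17832 CPM in matched lungs (median 6449). Tumors exceeded their own lung in 9 of 9 animals, but by little in M7046 (18756 CPM in tumors and 17832 CPM in lung), and F1768's tumors (12374 CPM) lay below the highest lung. The log2 fold change of Sftpc was 2.44 ± 0.40 (edgeR adjusted p = 0.00118). Ctsh and Rab27a, which serve surfactant protein processing and vesicle traffic, differed by 2.55 and 1.68, and the lysosomal Dram1 by 1.56 (edgeR adjusted p = 6.46e-05, 2.26e-04 and 1.17e-04). The exception was Lyz1, a lysozyme gene, which fell by 1.72 on the log2 scale (edgeR adjusted p = 0.0179). The summed level of the list was 16554 to 219552 CPM in the 23 tumors (median 98977) and 20083 to 64491 CPM in the 9 lungs (median 30763), where tumor 8 gave the lowest value. In bulk libraries such as these, fewer cells of a type and less RNA per cell cannot be told apart.

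Among lung epithelial transcription factors, 8 of 21 rose (38.1%, against 16.7% of all genes), with a median of 0.56. In this list 1 fell (4.76%, against 16.1%, and 2 without F7021). Elf5 had 227 CPM in tumors and 89.3 CPM in lungs as medians, a difference of 1.35 ± 0.20 (edgeR adjusted p = 7.50e-04). Cebpa, a factor of surfactant-producing cells, differed by 1.23, and the differentiation inhibitor Id2 by 1.01. Nkx2-1, which encodes the lineage factor of distal lung, had 12.8 to 85.3 CPM in tumors (median 19.5) and 8.82 to 19.6 CPM in matched lungs (median 16.8). The 4 M-named animals' tumors had 54.3 to 85.3 CPM and the 5 F-named animals' tumors 12.8 to 19.5 CPM, and the log2 fold change over all 9 was 1.15 ± 0.37 (edgeR adjusted p = 0.0313). The difference between the letters, M minus F, was 2.06 (edgeR adjusted p = 0.00969), in a test whose calls depend on single animals and on a covariate, as given below. The rise over all 9 animals lost its call with total counts alone and when F1765, M7033, M7035, M7046 or M7037 was left out. Of 18 type 1 cell genes 4 rose (22.2%, against 16.7% of all genes, and 1 with total counts alone) and 5 fell (27.8%, against 16.1%), with a median of 0.07. Aqp5, the water channel, rose by 1.82 ± 0.24 (edgeR adjusted p = 4.10e-04), while the guidance factor Sema3e and the matrix proteoglycan Spock2 fell (log2 fold changes -1.41 and -0.92).

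Genes of airway cells fell. All 21 tested ciliated genes fell, with a median of -3.46, and 14 of 20 club and airway secretory genes fell (19 without tumor 22) and none rose, with a median of -3.20. Foxj1, the regulator of motile ciliogenesis, had 0.0727 to 114 CPM in tumors (median 12.9) and 102 to 593 CPM in matched lungs (median 251). Only the tumors of M7037 (114 CPM) exceeded the lowest lung, and in M7046 and M7033 tumors were at 0.0727 and 0.266 CPM. The outer dynein arm gene Dnah11, the tubulin-binding Tppp3 and the tektin genes Tekt4 and Tekt1 had log2 fold changes of -3.76, -2.33, -3.27 and -3.28 (edgeR adjusted p = 9.75e-04, 9.93e-04, 0.00406 and 0.00514). Summed ciliated markers were 63.8 to 3365 CPM in tumors (median 241) and 1689 to 5025 CPM in lungs (median 3131), with the highest tumor value in tumor 22.

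Scgb1a1, the main secretoglobin gene of club cells, did not pass the test. It had 93.3 to 20199 CPM in tumors (median 6213) and 5624 to 113262 CPM in matched lungs (median 38872), and the difference was -2.62 ± 1.09 (edgeR adjusted p = 0.0869). F7020 and F1767 had higher levels in tumors (20199 and 10753 CPM) than in their lungs (19377 and 5624 CPM), whereas M7033 and M7046 tumors were at 103 and 93.3 CPM. Other club cell genes did pass. Ces1d, a carboxylesterase, differed by -1.53 ± 0.25 (edgeR adjusted p = 0.00118), the aldehyde dehydrogenases Aldh1a1 and Aldh3a1 by -3.30 and -3.15, and the P450 gene Cyp2f2 by -2.58 ± 0.51 (edgeR adjusted p = 0.00317). Of 10 tested basal and neuroendocrine genes 8 fell, and 4 did so without the animal block. Uchl1, a neuronal ubiquitin hydrolase, and the granule protein genes Chgb and Resp18 differed by -2.19, -2.23 and -4.51, the last losing its call without the animal block (edgeR adjusted p = 0.0745). Levels were low, with medians in tumors and lungs of 0.228 and 1.36 CPM for Chgb and 0.0926 and 5.15 CPM for Resp18.

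Detoxification genes fell. Of 23 tested genes of xenobiotic metabolism 20 fell and 1 rose, and their median was -2.12. The 1 that rose, Gstt1, lost its call when any animal other than F1768 or F1765 was left out. Fmo2, the main flavin monooxygenase gene of lung, had medians of 63.9 CPM in tumors and 329 CPM in lungs and a log2 difference of -1.92 ± 0.19 (edgeR adjusted p = 1.16e-04). Its relative Fmo1 had medians of 28.6 CPM in tumors and 89.7 CPM in lungs and differed by -1.64 ± 0.20 (edgeR adjusted p = 2.93e-04). The glutathione transferases Gsta3 and Gstm2 differed by -1.90 and -2.12. The summed level of the list was 1320 to 4678 CPM in tumors and 4205 to 18847 CPM in lungs. Baseline lungs had 15732 to 31700 CPM, a range that overlapped the upper end of the matched lungs. Of 18 targets of Nrf2, the oxidant-response factor, 5 rose (27.8%, against 16.7% of all genes, and 2 with total counts alone) and 4 fell (22.2%, against 16.1%). Hmox1, heme oxygenase, and the pentose phosphate enzyme Taldo1 rose by 1.30 and 0.70, and Nqo1, a quinone reductase also abundant in airway cells, differed by -2.12 ± 0.35 (edgeR adjusted p = 0.00131).

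Genes of the cell division cycle rose. Of 23 tested, 21 rose and none fell, with a median of 1.49, and 14 rose with total counts alone. Promoters of such genes commonly carry a CHR element (TTTGAA) near a CCAAT box, bound by the MuvB and NF-Y complexes, while promoters of S-phase genes carry E2F sites, and both arrangements can be read in the sequences below. They are promoters of called genes of the 2 lists, from RefSeq (GRCm38.p6), 250 bases before to 50 after the start, chosen after the values were seen, as members that hold these elements. Each is written along the gene's strand, and capitals mark CHR and CCAAT in Prc1, Ube2c and Ccnb2 and the E2F sites TTTGGCGC or TTTCCCGC in Mcm5 and Mcm3, on either strand. Prc1 lies at chr7:80294201-80294500 (plus strand), Ube2c at chr2:164769679-164769978 (plus), Ccnb2 at chr9:70421505-70421804 (minus), Mcm5 at chr8:75109259-75109558 (plus) and Mcm3 at chr1:20820263-20820562 (minus).
Prc1: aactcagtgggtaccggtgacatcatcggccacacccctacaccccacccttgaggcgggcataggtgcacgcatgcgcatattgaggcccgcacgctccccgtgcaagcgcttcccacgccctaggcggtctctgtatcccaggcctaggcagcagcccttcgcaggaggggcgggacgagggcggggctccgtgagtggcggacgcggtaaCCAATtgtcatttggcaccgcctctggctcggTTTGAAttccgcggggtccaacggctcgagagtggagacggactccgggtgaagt
Ube2c: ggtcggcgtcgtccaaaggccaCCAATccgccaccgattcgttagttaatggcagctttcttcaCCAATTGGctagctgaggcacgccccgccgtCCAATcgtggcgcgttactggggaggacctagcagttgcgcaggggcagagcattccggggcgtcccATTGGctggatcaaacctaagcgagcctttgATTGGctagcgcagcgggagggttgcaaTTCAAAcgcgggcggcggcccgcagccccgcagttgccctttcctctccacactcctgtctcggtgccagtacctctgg
Ccnb2: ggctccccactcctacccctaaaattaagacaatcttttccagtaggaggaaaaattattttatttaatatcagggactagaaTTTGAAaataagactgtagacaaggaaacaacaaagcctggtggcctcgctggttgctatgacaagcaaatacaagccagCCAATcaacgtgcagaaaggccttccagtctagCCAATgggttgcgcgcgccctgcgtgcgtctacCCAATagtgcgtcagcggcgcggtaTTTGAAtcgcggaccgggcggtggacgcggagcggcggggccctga
Mcm5: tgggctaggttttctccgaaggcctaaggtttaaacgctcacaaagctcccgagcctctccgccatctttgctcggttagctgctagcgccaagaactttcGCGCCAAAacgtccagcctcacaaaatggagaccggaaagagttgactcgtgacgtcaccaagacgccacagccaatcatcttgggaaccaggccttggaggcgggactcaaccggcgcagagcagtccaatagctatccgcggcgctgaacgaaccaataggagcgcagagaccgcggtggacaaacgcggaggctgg
Mcm3: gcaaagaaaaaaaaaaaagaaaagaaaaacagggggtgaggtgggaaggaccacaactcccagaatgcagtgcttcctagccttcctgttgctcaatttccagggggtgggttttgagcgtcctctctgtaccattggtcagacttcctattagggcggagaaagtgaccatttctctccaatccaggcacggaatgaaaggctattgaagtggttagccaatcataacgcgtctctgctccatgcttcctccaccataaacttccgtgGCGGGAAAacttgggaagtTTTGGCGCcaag

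In Ube2c overlapping CCAAT matches on both strands form a longer run of capitals. Of the 18 cell cycle genes with a promoter in the table, 13 (72.2%) held the CHR letters and 15 (83.3%) held CCAAT, against 14.3% and 41.3% of the 10450 tested genes with a promoter. Both occurred together in 13 of 18, against 6.63%. Among 18 replication genes 3 held the CHR letters (16.7%), and 8 (44.4%) held at least 1 of the 2 E2F sites, against 3.17% of all. No cell cycle gene of the 18 held either E2F site. These are matches of letters in a fixed window.

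Mki67, the proliferation marker, had 19.8 to 145 CPM in tumors (median 44.7) and 2.89 to 18.7 CPM in matched lungs (median 13.2). Tumors exceeded lungs without overlap, at a log2 difference of 1.84 ± 0.41 (edgeR adjusted p = 0.00574), and F1768 was highest with 145 CPM. Without tumor 8 Mki67 differed by 1.69 (edgeR adjusted p = 0.000576). Prc1, a spindle midzone protein gene, had 14.5 to 42.0 CPM in tumors (median 23.6) and 3.31 to 14.8 CPM in matched lungs (median 4.56), overlapping only because M7046's lung (14.8 CPM) exceeded F1765's tumor (14.5 CPM), and rose by 2.13 ± 0.28 (edgeR adjusted p = 3.96e-04). The apoptosis inhibitor and chromosomal passenger gene Birc5 rose by 1.71 ± 0.22 (edgeR adjusted p = 3.20e-04), the kinase gene Melk by 1.95, the ubiquitin-conjugating enzyme gene Ube2c by 1.51 and the cyclin gene Ccnb2 by 1.46. Of 22 DNA replication genes 11 rose and none fell, their median was 0.69, and 5 rose with total counts alone. Mcm5, a subunit of the replicative helicase, rose by 1.14 ± 0.25 (edgeR adjusted p = 0.00536), its partner Mcm3 by 0.81, the cyclin gene Ccne2 by 0.99 and the repressor E2F family member E2f8 by 1.10. Summed cell cycle levels were 143 to 1300 CPM in tumors and 84.2 to 177 CPM in lungs, with baseline lungs at 98.1 to 212 CPM.

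Cdkn2a, which encodes the cell cycle inhibitors p16 and p19Arf, had 3.04 to 40.3 CPM in tumors (median 17.5) and 1.53 to 5.003 CPM in matched lungs (median 2.29). Tumors of F1767 (3.04 CPM) were below their own lung (5.003 CPM), and the other 8 animals were higher. The log2 fold change was 2.32 ± 0.50 (edgeR adjusted p = 0.00515). Cdkn1a, the p21 gene and a p53 target, had 98.3 to 400.0 CPM in tumors (median 201) and 44.9 to 90.9 CPM in matched lungs (median 67.2) and differed by 1.502 ± 0.24 (edgeR adjusted p = 0.00110). Of 22 tested genes of the p53 and damage response, 7 rose (31.8%, against 16.7% of all genes) and none fell, with a median of 0.31. Without tumor 8, 9 rose, and with total counts alone 5 rose. The stress cytokine gene Gdf15 rose by 1.77 ± 0.20 (edgeR adjusted p = 2.50e-04), the stress sensor Sesn2 by 1.07 and the death receptor gene Tnfrsf10b by 1.61. Trp53 itself had 63.9 to 105 CPM in tumors (median 73.1) and 40.1 to 84.8 CPM in matched lungs (median 61.2), a difference of 0.28 ± 0.17 (edgeR adjusted p = 0.237) that did not pass.

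Output genes of ERK signalling rose. Of 17 tested, 13 rose and 1 fell, with a median of 1.09, and 7 rose with total counts alone. The 1 that fell, Spred3, lost its call without M7037. Dusp4 encodes a phosphatase that switches ERK off, and had 20.8 to 59.3 CPM in tumors (median 44.6) and 2.67 to 13.7 CPM in matched lungs (median 9.28). No tumor value was below a lung value, and the log2 fold change was 2.32 ± 0.16 (edgeR adjusted p = 2.51e-05). The related phosphatase gene Dusp6 had medians of 108 CPM in tumors and 28.4 CPM in lungs and rose by 1.74 ± 0.19 (edgeR adjusted p = 1.68e-04). The feedback inhibitor Spry2 rose by 1.60 and the ETS factor gene Etv4 by 2.56. Summed levels were 711 to 3668 CPM in tumors and 1089 to 1545 CPM in lungs, the lowest in tumor 8. Mapk3, the ERK1 gene, rose by 0.72. The counts do not report mutations.

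Several ligands of the EGF receptor rose, and the receptor gene Egfr fell. Of the 15 family genes tested 7 rose (46.7%, against 16.7% of all genes) and 4 fell (26.7%, against 16.1%). With total counts alone 4 rose. Areg, the amphiregulin gene, had 21.6 to 888 CPM in tumors (median 192) and 20.6 to 100.3 CPM in matched lungs (median 55.7). F7020 had 21.6 CPM in tumors and 20.6 CPM in lung, and the other 8 animals' tumors were higher than their lung. The log2 fold change was 1.79 ± 0.34 (edgeR adjusted p = 0.00273). Hbegf and Tgfa rose by 1.42 and 0.75, and Errfi1, a feedback inhibitor of the receptor, by 1.28 ± 0.18 (edgeR adjusted p = 6.12e-04). Egfr had 6.11 to 18.3 CPM in tumors (median 11.99) and 16.3 to 21.4 CPM in matched lungs (median 18.8) and fell, with a log2 difference of -0.76 ± 0.20 (edgeR adjusted p = 0.0118). Nrg2, a neuregulin gene, differed by -1.99 ± 0.31 (edgeR adjusted p = 9.93e-04).

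Matrix and junction genes rose more often than they fell. Of 24 matrix and basement membrane genes, 12 rose and 3 fell, with a median of 0.60. Lamb3, a chain of the laminin that anchors epithelium, had 58.7 to 644 CPM in tumors (median 255) and 10.9 to 58.5 CPM in matched lungs (median 37.4). Every tumor value was above every lung value, and the log2 fold change was 2.75 ± 0.22 (edgeR adjusted p = 4.73e-05). Col4a1, a basement membrane collagen, rose by 2.17, while Lama2, a laminin chain of mesenchyme, differed by -1.08. Of 18 junction genes 6 rose (33.3%, against 16.7% of all genes, and 8 without tumor 8) and 1 fell (5.56%, against 16.1%). The other 11 did not pass. Epcam had 147 to 416 CPM in tumors (median 272) and 67.6 to 186 CPM in matched lungs (median 154) and rose by 1.13 ± 0.19 (edgeR adjusted p = 0.00142), the kidney cadherin gene Cdh16 by 2.09 and Ceacam1 by 1.48, while the stem cell surface gene Prom1 differed by -2.59. Genes of the Krt8-positive state through which type 2 cells pass after injury rose in 9 of 19 (47.4%, against 16.7% of all genes). In that list 1 fell (5.26%, against 16.1%). Clu, a secreted chaperone gene, rose by 2.30 ± 0.26 (edgeR adjusted p = 2.50e-04), and Lgals3, a galectin gene, by 1.23. Among proteases and inhibitors 7 of 22 rose (31.8%, against 16.7% of all genes, and 4 with total counts alone) and 2 fell (9.09%, against 16.1%). The rises were led by macrophage elastase Mmp12 at 2.94 ± 0.27 (edgeR adjusted p = 9.52e-05), the cathepsin Ctsz at 1.58 and the antiprotease Slpi at 1.43. The 2 that fell dropped to 0 or 1 when F7021, F1768, F1765, M7033, M7035 or M7046 was left out.

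Genes of lipid synthesis and transport rose, 11 of 22 against 2 that fell, with a median of 0.63 and 7 rises with total counts alone. Scd2, a fatty acid desaturase gene, had 232 to 928 CPM in tumors (median 629.7) and 83.9 to 392 CPM in matched lungs (median 175) and rose by 1.76 ± 0.20 (edgeR adjusted p = 2.52e-04). Elovl1, which lengthens fatty acids, and Lpcat1, which makes the main surfactant phospholipid, rose by 2.06 and 1.88. The list summed to 3183 to 27009 CPM in tumors (median 14396) and 2927 to 9785 CPM in lungs (median 5402). Glycolysis genes mostly did not pass. Hk2, a hexokinase gene, and Pkm, pyruvate kinase, rose by 1.64 and 0.93, the monocarboxylate exporter Slc16a3 differed by -1.23 ± 0.35 (edgeR adjusted p = 0.0170), and 14 of 17 did not pass. The 2 rises (11.8%, against 16.7% of all genes) became 4 without F1765 or without the animal block, and 7 with the 6-gene covariate described below. Lcn2, the iron-siderophore carrier lipocalin, had 434 to 1859 CPM in tumors (median 684) and 74.8 to 346 CPM in matched lungs (median 153) and rose by 2.32 ± 0.23 (edgeR adjusted p = 1.16e-04).

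Immune genes divided by cell type. Macrophage genes rose in 11 of 21 and fell in 1, with a median of 1.05. Mmp12 rose as above, and Cd68, Marco and Siglecf, a lysosomal protein and surface receptors of macrophages, differed by 1.28 ± 0.16 (edgeR adjusted p = 3.02e-04), 1.85 and 1.74. Antigen presentation genes rose in 9 of 17, with none falling (1 without tumor 8 or with total counts alone) and a median of 0.66. The class II genes H2-Ab1, H2-DMb1 and H2-DMa rose by 1.46, 1.96 and 1.28 (edgeR adjusted p = 1.17e-04, 2.09e-04 and 6.89e-04). Of 32 cytokines and chemokines 12 rose and none fell, although 3 fell with total counts alone and 1 without tumor 8. Csf2, the GM-CSF gene, which type 2 cells make and alveolar macrophages need, rose by 1.71 ± 0.20 (edgeR adjusted p = 2.52e-04), and Ccl6, Cxcl15 and Cxcl3 by 2.28, 2.02 and 2.22. Among monocyte and dendritic genes 5 of 19 rose (26.3%, against 16.7% of all genes) and 3 fell (15.8%, against 16.1%). With total counts alone 2 rose. The chemokine genes Ccl17 and Ccl22 differed by 1.34 and 1.02, of which Ccl22 lost its call with total counts alone, and Ace, high in non-classical monocytes and capillaries, by -0.80.

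Most lymphocyte genes did not pass the test. The pan-leukocyte gene Ptprc had 25.6 to 276 CPM in tumors (median 33.8) and 18.6 to 112 CPM in matched lungs (median 41.2), a difference of -0.04 ± 0.37 (edgeR adjusted p = 0.954), and F1768's tumors were far above all others at 276 CPM. Of 19 T and NK cell genes 2 fell (10.5%, against 16.1% of all genes). They were the granzyme gene Gzma at -1.91 ± 0.37 (edgeR adjusted p = 0.00281) and the T-cell receptor kinase gene Zap70 at -1.39 ± 0.34 (edgeR adjusted p = 0.00842). Of 17 B and plasma cell genes 1 rose, Sdc1, a syndecan that epithelium also makes, and none fell. Without tumor 8, 5 T and NK cell genes fell and 6 B and plasma cell genes fell, and Pax5, the B-lineage factor, had a change of -1.54 (edgeR adjusted p = 0.0114), against -1.28 ± 0.51 (edgeR adjusted p = 0.0722) with all tumors. Without animal F1768 altogether, 8 and 7 fell. Interferon response genes fell in 7 of 16, in 4 without F1765, M7035, M7037 or the animal block, in 9 without tumor 8 and in 10 with total counts alone. Their summed level in tumor 8 was 2202 CPM, against 149 to 409 CPM in the other tumors and 321 to 651 CPM in lungs. The list held Usp18 at -1.69 ± 0.23 (edgeR adjusted p = 5.05e-04) and Oasl1 at -1.11 ± 0.26 (edgeR adjusted p = 0.00660). In the checkpoint list 5 of 21 rose (23.8%, against 16.7% of all genes) and 2 fell (9.52%, against 16.1%). With total counts alone 1 rose, and 9 rose without the animal block. Cd276, the B7-H3 gene, differed by 1.53 ± 0.24 (edgeR adjusted p = 9.22e-04). Cd274, the PD-L1 gene, had 23.2 to 85.8 CPM in tumors (median 38.3) and 12.1 to 39.8 CPM in matched lungs (median 22.4) and differed by 1.06 ± 0.29 (edgeR adjusted p = 0.0158), a call lost with total counts alone. Only M7046's tumors (36.2 CPM) had less Cd274 than their own lung (39.8 CPM).

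Genes of stroma and vessels fell more often than they rose. Fibroblast genes fell in 13 of 23 and rose in 2 (median -1.18), and smooth muscle and pericyte genes fell in 10 of 16, 6 without the animal block, and rose in 2, 1 without M7035 (median -1.29). Gsn, gelsolin, differed by -1.39 ± 0.17 (edgeR adjusted p = 2.81e-04), and the lung mesenchyme genes Tcf21, a transcription factor, and Wnt2, a ligand, by -1.42 and -3.29. Wnt2 was low, at most 3.62 CPM in any single tumor. Des, desmin, differed by -1.89 ± 0.27 (edgeR adjusted p = 6.56e-04), the pericyte gene Higd1b by -1.501 and the hedgehog inhibitor Hhip by -1.69. Rgs5 and Postn, of pericytes and of matrix, rose by 1.70 and 0.79. All 7 mesothelial genes, which mark the pleura, fell (6 without tumor 8, median -2.59), with Lrrn4 at -3.18 ± 0.55 (edgeR adjusted p = 0.00165) and Upk1b at -2.12. Their summed level was 2.88 to 168 CPM in tumors and 134 to 455 CPM in lungs.

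Of 20 general endothelial genes 7 fell and 1, the sialomucin gene Emcn, rose, by 1.399. Pecam1, the adhesion molecule that marks endothelium, had 187 to 599 CPM in tumors (median 368) and 159.6 to 783 CPM in matched lungs (median 249). Its difference of 0.15 ± 0.21 (edgeR adjusted p = 0.612) did not pass, and the groups overlapped widely. Egfl7 and Eng, an angiogenic factor and a TGF-beta co-receptor of endothelium, differed by -1.14 ± 0.15 (edgeR adjusted p = 3.92e-04) and -1.18. Alveolar capillary genes fell in 8 of 18 (44.4%, against 16.1% of all genes) and rose in 3 (16.7%, against 16.7%). With total counts alone 1 rose. Prx differed by -1.76 and Kdr, the main VEGF receptor, by -0.91 ± 0.15 (edgeR adjusted p = 0.00140). Artery, vein and lymphatic genes fell in 8 of 14 (5 without F1765 or without the animal block), among them Vwf, von Willebrand factor, at -1.73 ± 0.24 (edgeR adjusted p = 5.58e-04). All 8 heart muscle genes tested fell, but only 3 without F7021, 4 without F1768 or M7035, 5 without M7046 and 7 without tumor 8, and they summed to 3.74 to 327 CPM in tumors and 184.5 to 1554 CPM in lungs. Erythroid and platelet genes fell in 7 of 9, such as the heme enzyme gene Alas2 at -3.12 ± 0.44 (edgeR adjusted p = 6.09e-04). Markers of heart, pleura and airway were thus lower in tumors beside the falls in stroma, vessels and detoxification genes, and their part in those falls was not tested.

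Developmental signalling genes fell more often than they rose. Of 29 Wnt, Notch and Hedgehog genes 9 fell, 14 with total counts alone and 16 with DESeq2, and 1 rose, Wnt7a, whose call was lost without F1768, F1765, M7033, M7035, M7046 or M7037. The ligand gene Wnt4 differed by -1.67 ± 0.25 (edgeR adjusted p = 8.43e-04), and the secreted inhibitor gene Sfrp2 by -2.90 ± 0.49 (edgeR adjusted p = 0.00137). Sfrp2 was low, with medians of 0.865 CPM in tumors and 4.92 CPM in lungs. TGF-beta and BMP genes fell in 10 of 23 (43.5%, against 16.1% of all genes). They rose in 5 (21.7%, against 16.7%, and 3 with total counts alone). The inhibitory Smad6 differed by -1.44 ± 0.17 (edgeR adjusted p = 2.81e-04), Bmp6 by -2.58 and the type I receptor gene Tgfbr1 by 1.20 ± 0.17 (edgeR adjusted p = 6.18e-04). Vascular signalling genes fell in 11 of 23, among them the endothelin gene Edn1 at -1.35 and the prostacyclin synthase gene Ptgis at -1.68 ± 0.17 (edgeR adjusted p = 1.17e-04). Of 15 imprinted and growth genes 6 fell and 3 rose, where 16.1% of all genes fell and 16.7% rose. The share of rises in this list was thus close to that of all genes. Dlk1, an imprinted Notch-family ligand gene that is mostly silent in adult lung, had 0.114 to 1196 CPM in tumors (median 35.4) and 0 to 5.68 CPM in matched lungs (median 0.401) and rose by 6.42 ± 0.99 (edgeR adjusted p = 0.00104). F1767 (1196 CPM), F7020 (528 CPM), F1768 (200 CPM) and M7037 (164 CPM) held high levels, whereas M7033 had 0.114 CPM in tumors and 0.152 CPM in lung.

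Genes of stomach, intestine and liver, which some lung tumors switch on, fell in 6 of 15 (3 without M7035 or the animal block, 8 without tumor 22, 10 with DESeq2) and rose in 3. Of all genes 16.1% fell and 16.7% rose, so the share of rises in this list was close to that of all genes. The list summed to 3847 CPM in tumor 22, against 199 to 606 CPM in lungs. That tumor held 2680 CPM of Clca1, a secreted protein gene of mucous cells, against at most 25.8 CPM in the other tumors and 108 CPM in lungs, and 665 CPM of Pigr, the receptor gene that carries antibodies across epithelium, against at most 232 CPM. Tff2 and Agr2, a trefoil peptide gene and a mucin-folding gene, were at 136 and 89.4 CPM there, against at most 4.15 and 8.59 CPM in the other tumors. Hnf4a, the hepatocyte and gut factor, had 0 to 14.6 CPM in tumors (median 0.420) and 0.453 to 6.38 CPM in matched lungs (median 2.30). F1765's tumor, at 14.6 CPM, was the only one above its own lung (4.51 CPM). The difference of -2.19 ± 0.72 (edgeR adjusted p = 0.0339) lost its call without tumor 8 (edgeR adjusted p = 0.0532) and without F1767, F1768, M7033, M7035 or M7037. The actin-bundling gene Vil1, of intestinal microvilli, differed by -1.25 ± 0.30 (edgeR adjusted p = 0.00827), and Alb, the albumin gene, by 1.78 ± 0.39 (edgeR adjusted p = 0.00524). Both were low: Vil1 was at most 2.32 CPM in any single tumor, and Alb had medians of 3.11 CPM in tumors and 0.825 CPM in lungs.

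Single tumors of 1 animal differed from each other, and since they share a lung they are described without a test. Dlk1 ranged over the 22 tumors other than tumor 8 from 0 to 1827 CPM, with a median of 9.66 CPM, and 5 of the 23 tumors exceeded 100 CPM. Within M7035, the animal with 7 tumors, it ranged from 0 to 201 CPM (median 1.52), and the highest was the only one of the 7 above 10 CPM. Ereg in the same 7 tumors was 23.1 to 152 CPM and Cdkn2a 3.72 to 33.5 CPM. Mki67 was 30.1 to 70.1 CPM. Sftpc over the 23 tumors was lowest in tumor 8 (5248 CPM) and 12493 to 94068 CPM in the rest. Foxj1 exceeded 100 CPM in 2 tumors. Without the 2 ADC tumors, 1 from M7035 and 1 from M7037, 4581 genes were called.

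**Figure D3:**
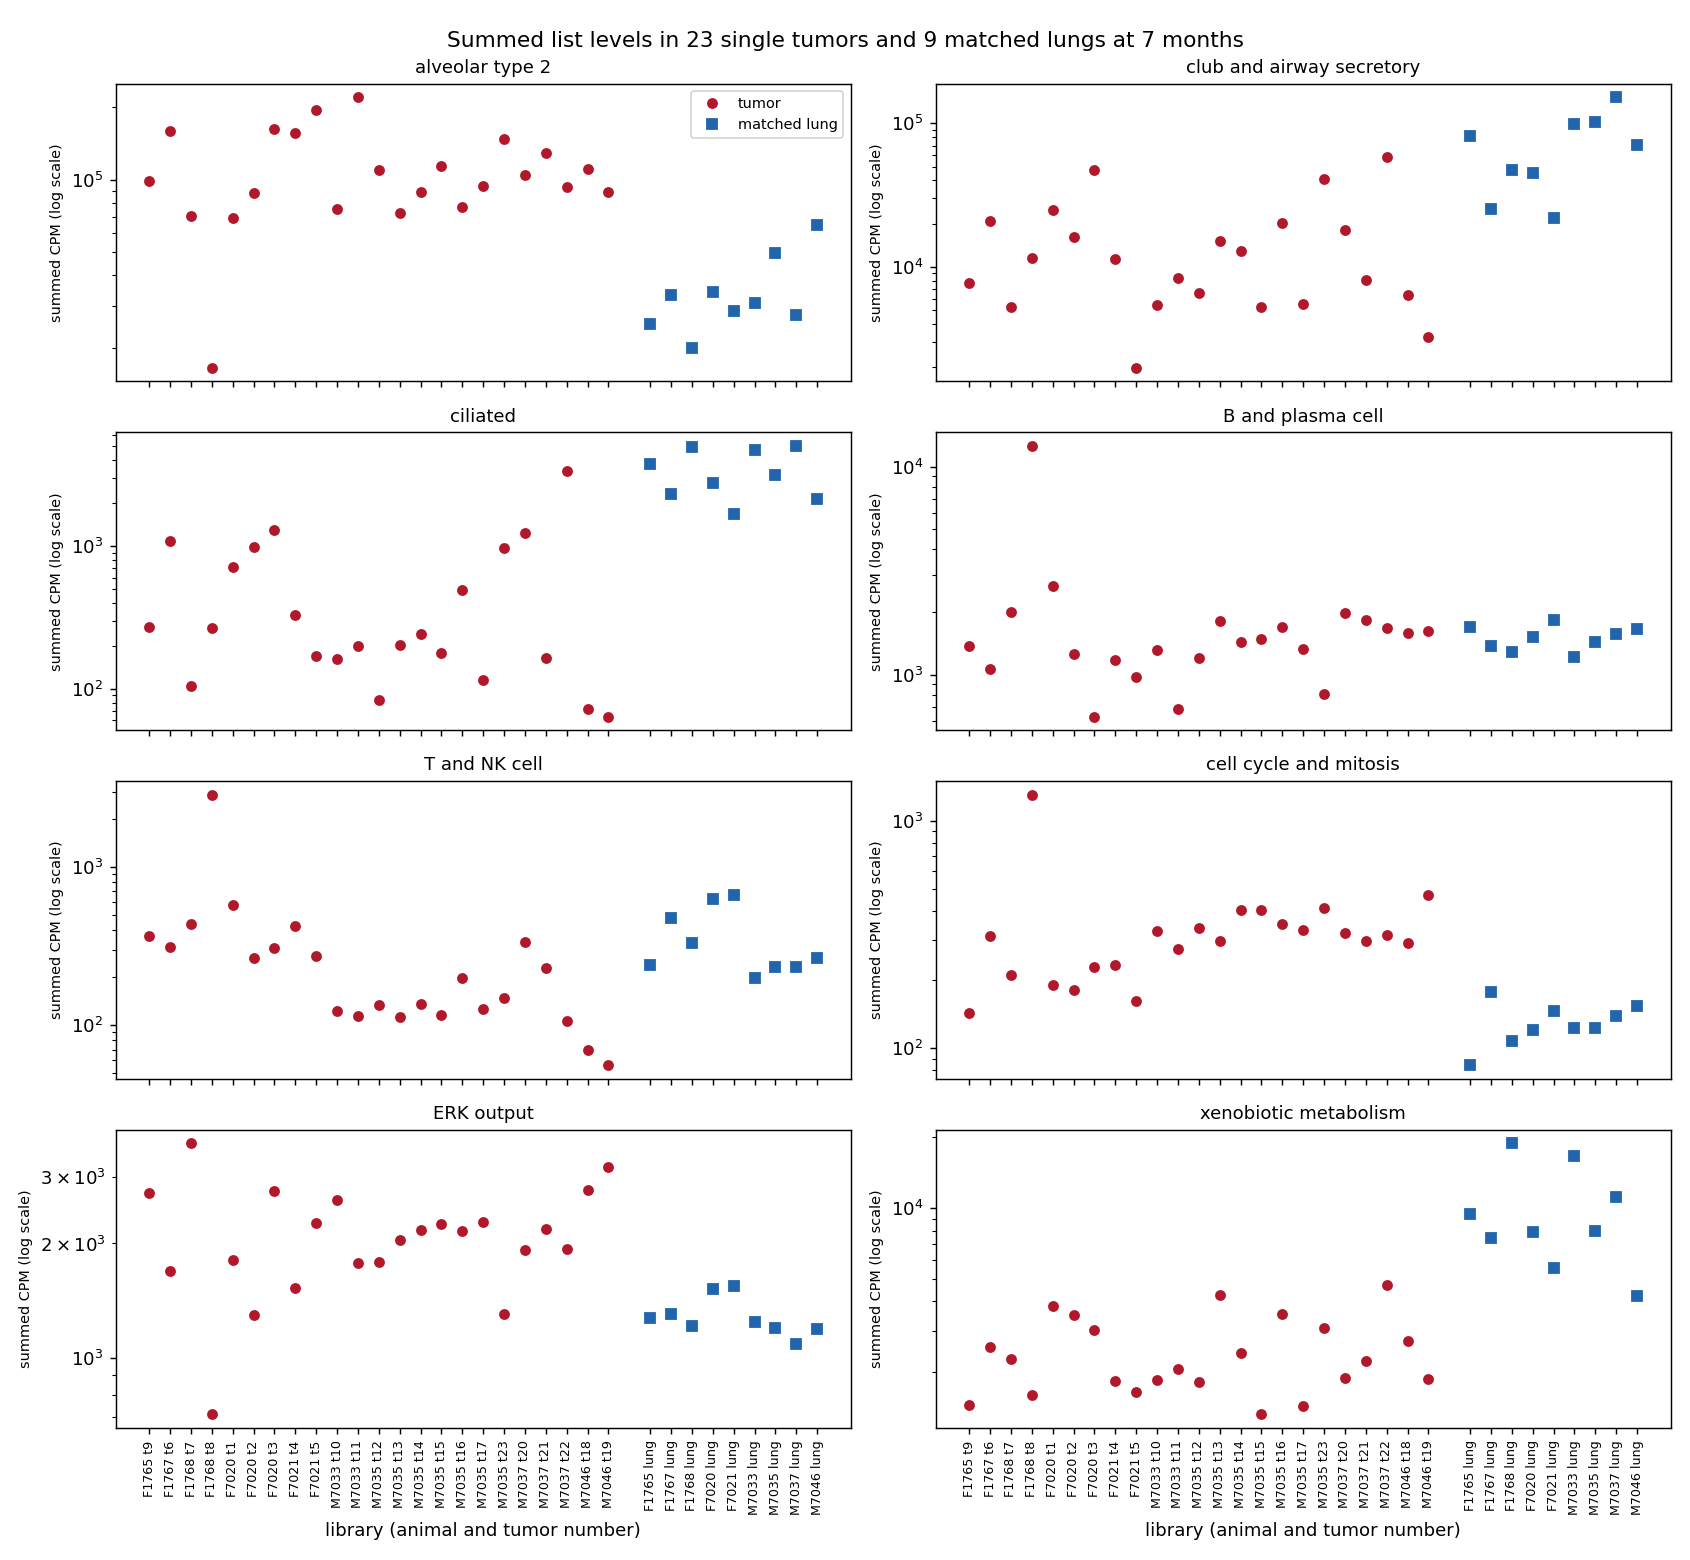
Summed levels of 8 gene lists in the 23 single tumors (red circles) and the 9 matched lungs (blue squares) at 7 months, in CPM on a log axis, with libraries along the horizontal axis. Tumor 8 of F1768 stands apart with 2866 CPM of T and NK cell markers and 16554 CPM of alveolar type 2 markers, and tumor 22 of M7037 reaches the lungs for ciliated markers with 3365 CPM.

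The difference between tumor and lung was set against that of the 7 animals with tumors at the earlier times, 4 tumors at the end of exposure and 6 at 3 months. The test of the difference covered 16 animals and 13943 genes, and edgeR called 0 of them (0.00%). On simulated counts this test found 21% of log2 changes of 1 and 77% of those of 2, so it can miss such differences. DESeq2 and limma-voom also called 0, and 624 genes had an unadjusted p under 0.05 (4.48%), or 814 with DESeq2 and 763 with limma-voom. The genes of smallest p were LOC108168323, Hacd4, 3930402G23Rik and Zcchc8, all with an edgeR adjusted p of 1. The earlier animals are independent of the 9. Of 2308 genes that rose at 7 months, 2260 (97.9%) had a positive mean difference in the earlier animals, and 1188 (51.5%) were higher in tumor in 7 of 7. Of 2211 that fell, 2183 (98.7%) had a negative mean difference. Over all 13814 genes in both fits 49.6% were positive, and 12.6% were higher in 7 of 7. Mean log2 differences at 7 months and earlier were 2.99 and 2.49 for Lamp3, 1.92 and 1.63 for Mki67, 5.07 and 4.71 for Ereg, 4.72 and 3.63 for Tnfsf9, and 6.11 and 8.02 for Dlk1. Gdf15 showed 1.73 at 7 months and 0.71 earlier, a difference that did not pass.

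**Figure D4:**
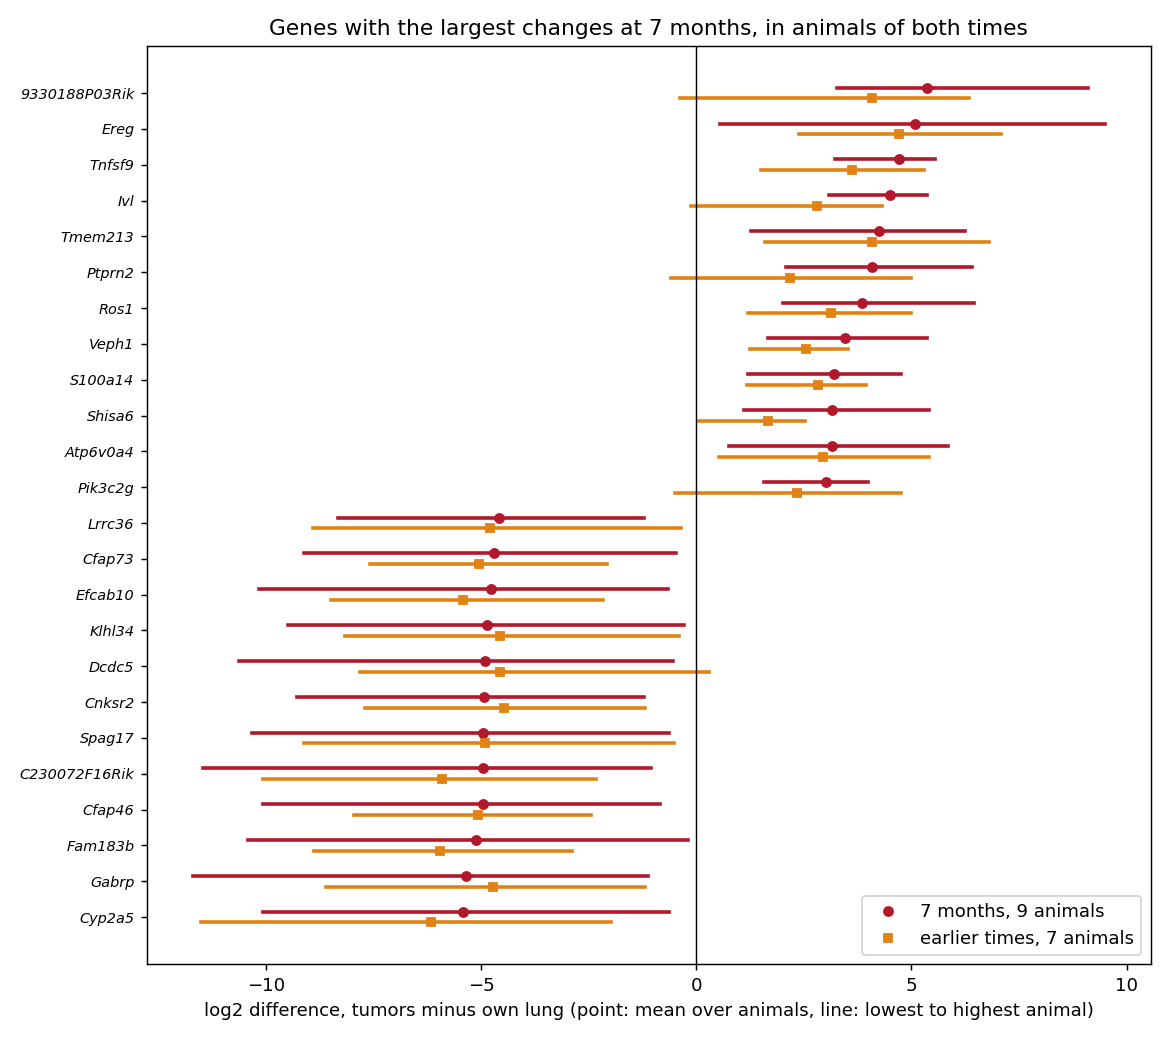
Log2 difference of tumors minus own lung for the 12 largest rises and 12 largest falls of 7 months, with the mean (point) and the lowest to highest animal (line) at 7 months (red circles, 9 animals) and at the earlier times (orange squares, 7 animals). The earlier means lie on the same side of 0 as those of 7 months for all 24 genes.

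The difference between tumor and lung also differed between the 4 M-named animals (14 tumors) and the 5 F-named animals (9 tumors). In edgeR's test of that difference (M minus F), 1992 of 13900 genes passed (14.3%), 1175 with a more positive difference in M-named animals (8.45%) and 817 with a more negative one (5.88%), and 4531 had an unadjusted p under 0.05 (32.6%). This count rests on single animals: it was 722 without M7046, 924 without F7021, 936 without M7035, 1031 without M7037, 1112 without F7020 and 1249 without F1765. Without the 2 ADC-titled tumors, both from M-named animals, 2149 genes passed, 1961 of them shared with the 1992. On simulated counts the letter test found 0% of log2 changes of 1 and 51% of those of 2, and 8.93% of its calls were false. The number of tumors was 2 to 7 per M-named and 1 to 3 per F-named animal, and its part was not tested. Hnrnpa0, an RNA-binding protein gene, had the largest positive difference, 6.84 (edgeR adjusted p = 0.0170). Its tumor-minus-lung differences were 1.10 to 5.14 in M-named animals and -7.23 to -0.61 in F-named animals. Ifi203, Cab39l, Rbm7, Tsen15 and Mrto4 followed with 6.60, 6.26, 6.13, 5.84 and 5.82, and for each of these the 2 sets of animals did not overlap. These 6 genes moved together across libraries. Their summed level was 4.76 to 211 CPM in M-named tumors (median 87.3) and 3.73 to 36.6 CPM in M-named lungs (median 8.39), and 2.99 to 215 CPM in F-named tumors (median 8.78) and 25.4 to 304 CPM in F-named lungs (median 171). Baseline lungs had 55.1 to 464 CPM. With that sum as a covariate, added after the values were seen, 0 genes passed in edgeR's test of the letters (2533 at an unadjusted p under 0.05), while 6104 genes passed in the comparison of tumor with lung. The sum is made of the genes with the largest difference between the letters, so a loss of letter calls follows in part from how it was made and says nothing of a cause.

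The negative differences were led by Meg3 and Rian, maternally expressed long noncoding RNAs of the imprinted locus on chromosome 12 that also holds Dlk1. Meg3 tumor-minus-lung differences were -2.19 to 1.89 in M-named animals and 3.86 to 6.45 in F-named animals, without overlap, and M minus F was -5.92. Rian showed -1.09 to 3.03 in M-named animals and 5.77 to 7.23 in F-named ones, with M minus F at -4.94. The transcript 6430411K18Rik, which the annotation places between Rtl1 and Rian in the same run of genes (Dlk1, Meg3, Rtl1, 6430411K18Rik, Rian), differed by -3.59, with ranges that overlapped slightly. Dlk1 itself overlapped between the letters. LOC105247310, Apol8 and Colq differed by -4.70, -4.23 and -3.80. In single tumors Meg3 was 5.67 to 561 CPM in the 14 M-named and 6.40 to 7788 CPM in the 9 F-named tumors, the low F-named value being tumor 8. Without tumor 8, 2304 genes differed between the letters.

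**Figure D5:**
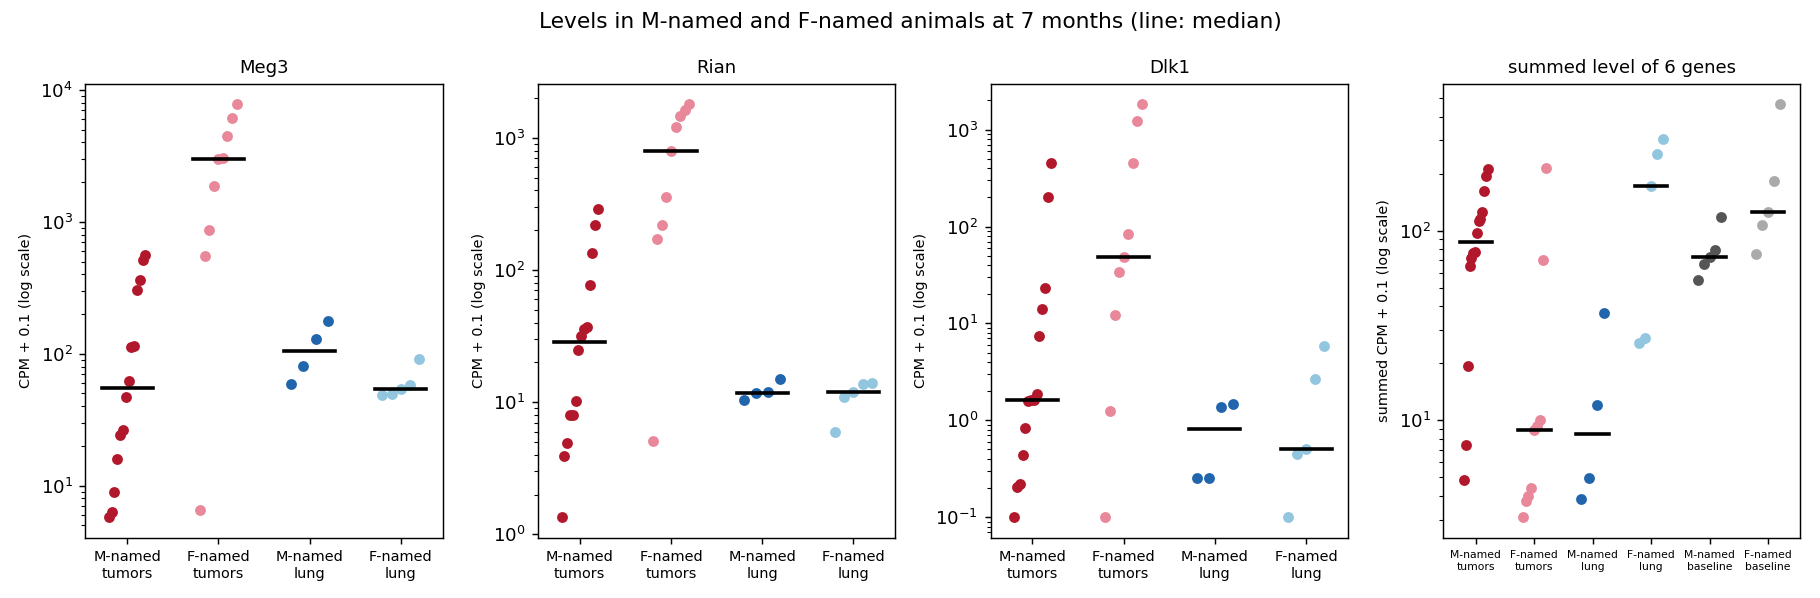
Levels of Meg3, Rian, Dlk1 and the summed level of 6 genes in single libraries, in CPM plus 0.1 on a log axis, for M-named and F-named tumors, their matched lungs and, for the sum, baseline lungs, with lines at the medians. Meg3 reaches 561 CPM in M-named tumors and 7788 CPM in F-named tumors.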

How the data were processed

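Whole-transcriptome amplicon libraries (Ion AmpliSeq Mouse, made from 10 ng of RNA and run 8 to a chip, per the labels' protocols) were counted per gene by the authors, who deposited 1 table of raw read counts. The aligner and build were not given in the sources used here. Of 74 sample columns 72 were matched to the labels, and 2 were not used; 27 gene names that had been turned into dates were restored. Gene lists (48 lists, 930 genes, 883 of them in the table) and all members were chosen with earlier results of these data known.

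Counts of an animal's tumors were summed, and tumor and lung were compared with edgeR 4.0.16 (R 4.3.3): filterByExpr, TMM, robust quasi-likelihood fit, animal as a block, 18 libraries, 8 residual degrees of freedom, Benjamini-Hochberg adjustment over 13900 genes. The pairing comes from the labels, which give both tissues of each animal. Deviations of tumor and lung from their group means correlated at -0.12 to 0.46 within animals (median 0.17). Of the 9 correlations 5 exceeded 0.1, and the tumors' own lung was the best match of the 9 lungs in 2 animals. Differences by time (16 animals, 14 residual degrees of freedom) and by letter (9 animals) were interaction terms in fits of the same kind. The fits were also run on simulated counts in which some genes were given log2 changes of 1 or 2. Of these, 32% and 89% were recovered for tumor against lung, 21% and 77% for time, and 0% and 51% for letter. False calls made up 1.63%, 2.97% and 8.93% of the calls, at an adjusted p under 0.05. Alternatives were other scalings, no filter, DESeq2 1.42.0, limma 3.58.1 voom, no block, other ways of combining tumors, and each animal left out.

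Named genes were the 12 largest rises and falls (at least 5 CPM on average, same direction in 9 animals), up to 4 called members of each list by smallest p, a panel of 18 genes (a few named genes are not reported here), and the 6 largest differences in each direction between letters (at least 5 CPM), or the 4 genes of smallest p where none was called. Lyz1, Gstt1, Spred3, Wnt7a, Tgfa, Hbegf, Rgs5, Postn, Mcm3, Ccnb2, Foxj1, Clca1, Pigr, Tff2 and Agr2 were added after their values were seen. Animals are the replicates, and levels of single tumors and baseline lungs are descriptions. Promoters are from RefSeq (GRCm38.p6) and were found for 10450 tested genes.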

Additional observations from a re-analysis of the deposited data

Results flagged for a closer look

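Among 41 genes examined over the 9 animals for a value far from the others, 2 had one, and chance gives about 1 in 20. Mki67 and Trp53 each had their highest difference of tumor minus own lung in F1768, at 5.63 and 1.38 on the log2 scale. The gaps to the next animal were 0.682 and 0.537 of the whole range. F1768 is the animal of tumor 8, whose lymphocyte markers stood above those of the other 22 tumors, and the part of those cells in the 2 values was not tested.

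Of the 1992 genes whose difference of tumor and lung itself differed between M-named and F-named animals in edgeR's test, the 12 named are the 6 with the largest value in each direction among genes averaging at least 5 CPM. On the log2 scale 6 were more positive in M-named animals: Hnrnpa0 by 6.84, Ifi203 by 6.60, Cab39l by 6.26, Rbm7 by 6.13, Tsen15 by 5.84 and Mrto4 by 5.82. The other 6 were more negative: Meg3 at -5.92, Rian at -4.94, LOC105247310 at -4.70, Apol8 at -4.23, Colq at -3.80 and 6430411K18Rik at -3.59.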

How the results depend on the processing

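The count of genes that differed between tumor and lung was 3687 to 4383 when an animal was left out and 4375 to 6104 under the other alternatives, against 4562. The calls shared with the 4562 had the same sign under each of these alternatives. Without the replicate block 4411 genes were called, and 3 of the 4562 had the opposite sign there. With total counts alone 1057 rose and 3374 fell, and with each tumor library on its own 3381 fell. The covariate and the fit without tumor 8 (4814 called) were added after seeing the data. The difference by time had 0 calls under all alternatives run.

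The difference between letters, 1992 genes (1175 and 817 by direction), was called for 722 to 2894 genes when an animal was left out, with 470 to 1704 more positive and 252 to 1190 more negative in M-named animals. DESeq2 called 3459, 1839 of them more negative, and total counts alone gave 445 more negative. With the 6 genes' summed level as a covariate 0 were called (0 and 0 by direction), Apol8 turned to 0.46 (edgeR adjusted p = 0.924) and Ifi203, itself in the sum, to -1.68 (edgeR adjusted p = 0.308). The sum holds the genes that differed most between letters, so this loss follows in part from its construction.

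The planned fit without animals over 300 CPM of Myh6 in lung was not run, since no such animal was paired. Of the other values, list counts and single genes, 6778 stayed the same, meaning the same direction and call for a gene and within 1.5 times for a count. Among genes, 113 values lost the call, 12 gained it and 2 reversed direction, and 179 counts moved by over 1.5 times. With 1 lung library per animal, no technical error of a single lung can be given.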
